A study of Mus musculus with 16 samples.

Results

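The 40 genes described here encode proteins of DNA replication and cell division, and their transcripts are widely used as a readout of cycling cells. They were picked by gene symbol, with no use of measured values in the rule, and all 40 were found in both expression tables, out of 18268 genes that the tables share and 20494 in either. Of the 40, 11 serve DNA replication and 29 serve mitosis and cytokinesis. They lie on 16 chromosomes of GRCm38, and exons of 12 of them overlap another annotated gene (Mcm7, Gins2, Ccna2, Plk1, Cdca8, Cdc20, Ube2c, Nusap1, Top2a, Ncapg, Kif20a and Prc1). Whether reads were counted by strand is not given in the sources used here; reads in those overlaps cannot be assigned with certainty.

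Poly(A) RNA was sequenced from dissected medial prefrontal cortex of male mice of the outbred ICR stock. The Ctrl groups were offspring of unstressed dams and the PNS groups were offspring of dams exposed to prenatal stress, taken at postnatal day 1 (P1) or day 14 (P14). Each of the 4 groups had 4 libraries, 16 in all. The labels do not say whether libraries of a group came from separate litters, and p-values here reflect only how far these libraries spread, which may be technical.

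The libraries held 33.98 to 58.84 M recovered reads at P1 and 15.07 to 72.98 M at P14, and group means were 42.0 ± 8.3 (Ctrl) and 52.7 ± 4.5 (PNS) M at P1 and 48.8 ± 25.4 and 31.8 ± 6.3 M at P14 (SD, n = 4). Replicates differed by more than sampling noise in every pair, with a chi-square per gene of 6.07 to 59.46. CPM here means recovered reads of a gene per 1 M reads of its library, with library totals scaled by TMM factors. A library therefore need not sum to 1 M. All 5 markers of cortical projection neurons were above 0.1 CPM on average in every group. They summed to 1900 to 2647 CPM in Ctrl at P1 and 3492 to 3892 CPM in Ctrl at P14. From P1 to P14 in Ctrl 4 of the 5 fell and only Slc17a7 rose (log2 change 4.71), so the sum rose through that gene. The median log2 change of the 5 was −0.88. Markers of the neighbouring olfactory bulb ranged widely at P1, from 17.0 to 51.5 CPM in Ctrl and from 7.34 to 239.3 CPM in PNS. The lowest recovered read count of any of the 40 genes was 96 at P1 (Ncapg) and 8 at P14 (Bub1), and all 40 passed the minimum mean of 10 at both ages.

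A dividing cell copies its genome in S phase and separates the copies in mitosis. The Mcm proteins and the GINS complex form the replicative helicase, Pcna is the sliding clamp that holds polymerases on DNA, and ribonucleotide reductase and thymidylate synthase supply deoxynucleotides. Cyclins with Cdk1 drive entry into mitosis, Aurora and Polo kinases order the spindle and chromosomes, the checkpoint delays anaphase until kinetochores are attached, and the anaphase-promoting complex then ends mitosis. In the rodent cortex neurogenesis is nearly complete at birth, while glial precursors continue to divide in the first weeks after it.

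Transcription of these genes is tied to the cell cycle through short promoter elements. Many S-phase genes carry E2F sites, whereas many mitotic genes carry a cell cycle genes homology region (CHR) together with CCAAT boxes, which are bound by the MuvB-containing complexes and NF-Y. Below are the 120 bases before the transcription start of 3 replication and 3 mitosis genes, shown because CHR letters stand in all 3 mitosis windows and in none of the 3 replication windows, whereas CCAAT letters stand in all 6 and an E2F match only in that of Mcm6. They are from RefSeq (GRCm38.p6) on the gene's strand, 5′ to 3′, and the start is that of RefSeq. In the GENCODE M21 annotation, used here for gene positions, Pcna begins further upstream, at chr2:132253314. Its whole window therefore lies inside the gene in that annotation. The windows of Cdk1 and Ube2c run partly into the GENCODE M21 genes, which begin at chr10:69352938 and chr2:164769898. Capitals mark each CCAAT or ATTGG, each CHR (TTTGAA or TTCAAA) and each E2F match (TTTCCCGC, TTTCGCGC, TTTGCCGC, TTTGGCGC or their reverse complements). The windows are chr1:20820313-20820432 (Mcm3, minus strand), chr1:128359706-128359825 (Mcm6, minus), chr2:132253181-132253300 (Pcna, minus), chr10:69352913-69353032 (Cdk1, minus), chr11:99024190-99024309 (Top2a, minus) and chr2:164769809-164769928 (Ube2c, plus).
Mcm3: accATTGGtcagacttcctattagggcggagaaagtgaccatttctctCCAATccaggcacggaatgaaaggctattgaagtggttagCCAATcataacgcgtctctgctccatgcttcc
Mcm6: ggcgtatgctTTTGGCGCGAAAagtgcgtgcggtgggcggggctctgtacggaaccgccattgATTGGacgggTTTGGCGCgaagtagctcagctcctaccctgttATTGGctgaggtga
Pcna: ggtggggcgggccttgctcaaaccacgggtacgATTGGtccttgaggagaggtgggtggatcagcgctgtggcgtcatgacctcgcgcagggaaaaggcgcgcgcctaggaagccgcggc
Cdk1: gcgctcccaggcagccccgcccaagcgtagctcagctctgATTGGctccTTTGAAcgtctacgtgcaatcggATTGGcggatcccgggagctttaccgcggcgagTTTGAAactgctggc
Top2a: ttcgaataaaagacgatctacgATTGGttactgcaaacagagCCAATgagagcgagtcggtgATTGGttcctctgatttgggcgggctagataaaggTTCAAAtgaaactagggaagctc
Ube2c: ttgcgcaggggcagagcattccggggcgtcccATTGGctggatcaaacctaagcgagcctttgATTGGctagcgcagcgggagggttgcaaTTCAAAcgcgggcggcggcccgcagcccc

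CCAAT boxes stood in promoters of both classes, while CHR letters stood mainly in mitosis promoters. A promoter entry was found for 34 of the 40 genes, in 37 windows of 300 bases (250 before and 50 after the start); Mcm4, Tpx2, Gins2, Ccna2, Kif20a and Aurkb had none. The CHR letters, searched on both strands, were in 22 of 27 mitosis windows (81.5%) and in 1 of 10 replication windows (10%), that of Mcm2, against 17.9% of all 32851 promoters. CCAAT was in 24 of 27 mitosis windows (88.9%) and 9 of 10 replication windows (90%), against 37.4% of all promoters. An E2F match was in 2 mitosis windows (7.41%; Cdk1 and Ncapg) and 4 replication windows (40%; Mcm3, Mcm5, Mcm6 and 1 of 2 windows of Mcm7), against 2.26% of all promoters. In Mcm6 the first capital run holds 2 overlapping E2F matches, TTTGGCGC and GCGCGAAA, the latter being the reverse complement of TTTCGCGC. A match is a description of the letters in this window, and these shares were not tested.

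From P1 to P14 every one of the 40 genes fell in Ctrl cortex, by a median of 5.40-fold. The comparison asks how proliferation transcripts change over the first postnatal weeks in unstressed offspring. It was made on recovered reads with edgeR's quasi-likelihood test, and 37% of the 16512 genes tested were called lower at an adjusted p of 0.05, so a fall as such was common. The median log2 change was −2.43 over the 40 genes and −0.04 over all genes tested. The smallest and largest changes were those of Pcna (−0.81) and Top2a (−3.62), and adjusted p-values ran from 4.06e-12 to 5.61e-05. For each of the 40 genes the lowest of the 8 P1 libraries stood above the highest of the 8 P14 libraries, as it did for 27.7% of the 16512 genes tested. In bulk tissue, fewer cells of a type and less RNA per cell cannot be told apart.

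**Figure D1:**
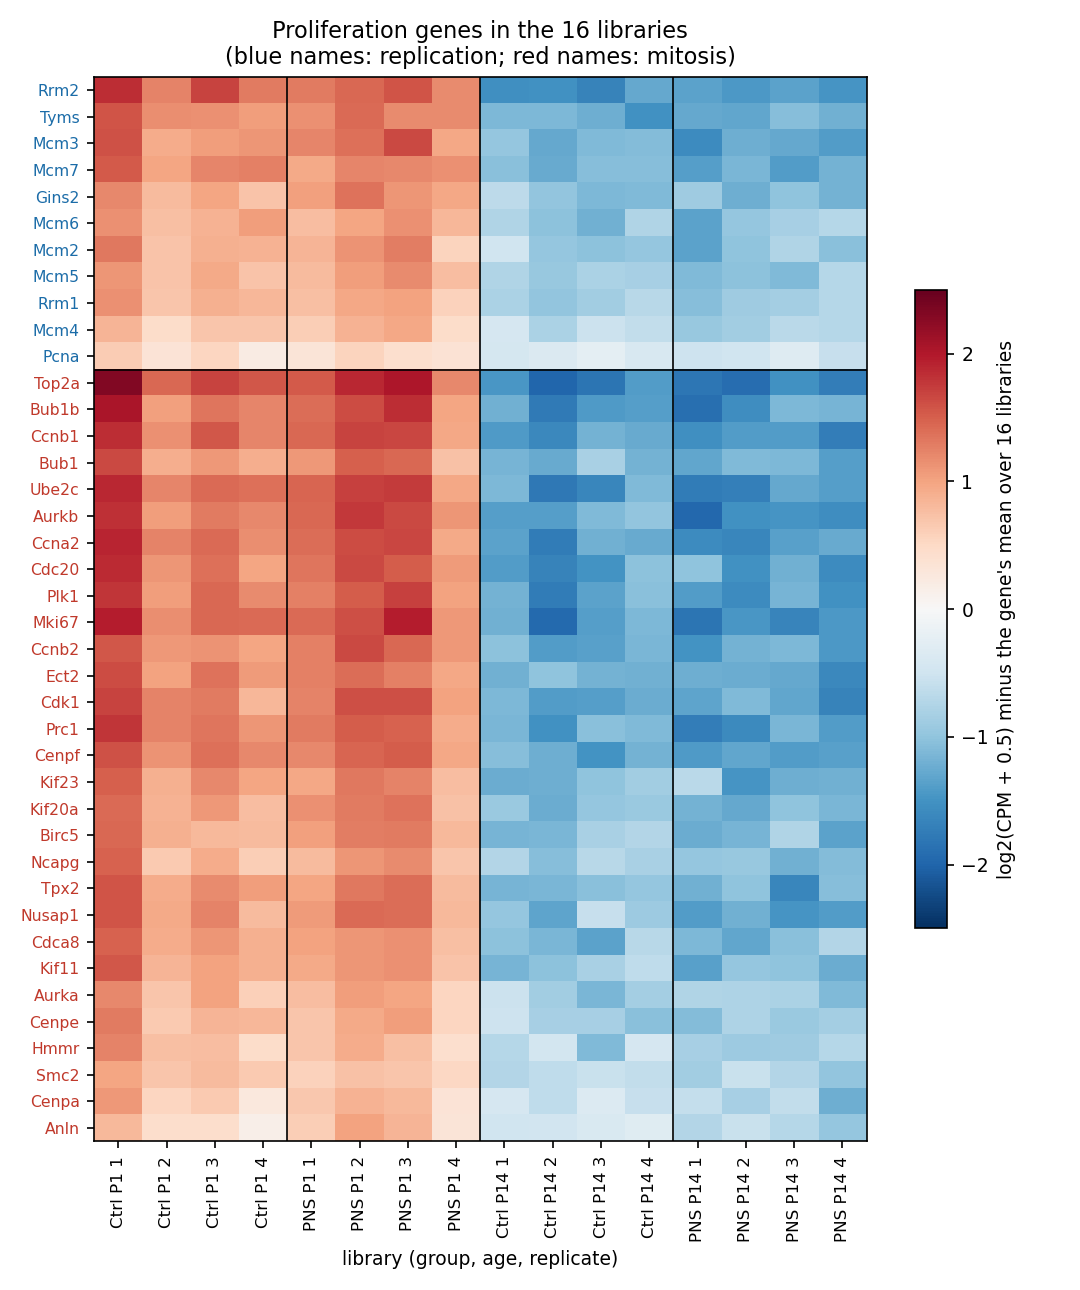
Heat map of the 40 genes (vertical axis, replication genes with blue names above mitosis genes with red names) in the 16 libraries (horizontal axis); colour is log2(CPM + 0.5) minus the gene's mean over the 16 libraries. Each gene stood higher in all 8 P1 libraries than in all 8 P14 libraries, and Pcna had the smallest change between ages in Ctrl, −0.81 on the log2 scale.

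Among the replication genes Pcna, the polymerase clamp, changed least and Rrm2, the regulated subunit of ribonucleotide reductase, changed most. Pcna stood at 58.3, 47.5, 54.8 and 43.5 CPM in the Ctrl libraries at P1 and at 27.6, 29.1, 31.5 and 28.3 CPM at P14. The groups did not overlap, and the level at P14 was 56.9% of that at P1 (log2 change −0.81 ± 0.09 SE, adjusted p = 2.84e-07). Rrm2 went from 29.4, 19.2, 26.2 and 20.1 CPM to 2.37, 2.43, 2.10 and 2.92 CPM, a 9.53-fold fall (log2 change −3.25 ± 0.15, adjusted p = 4.06e-12). Tyms, thymidylate synthase, fell 7.74-fold and Rrm1, the large reductase subunit, fell 3.37-fold, so the 3 nucleotide supply genes had a median log2 change of −2.95.

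The 7 helicase genes fell by less than the nucleotide supply genes at the median, with a log2 change of −1.91 and a range from −2.43 (Mcm3) to −1.32 (Mcm4). Mcm2, a subunit of the hexameric helicase ring, stood at 29.5, 19.1, 21.8 and 21.5 CPM in Ctrl at P1 and at 8.01, 5.66, 5.39 and 5.63 CPM at P14 (log2 change −1.88 ± 0.18, adjusted p = 7.46e-08). Mcm7, another ring subunit, went from 75.8, 51.4, 60.9 and 62.6 CPM to 12.2, 10.48, 12.1 and 12.1 CPM (log2 change −2.42 ± 0.11, adjusted p = 4.42e-12). For Mcm2 and Mcm7 the first Ctrl library was the highest at P1. Gins2, a subunit of the GINS complex that joins the ring in the active helicase, fell 5.25-fold (log2 change −2.39 ± 0.19, adjusted p = 5.81e-09).

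The mitosis genes fell by a median of 6.85-fold in Ctrl, with Top2a at the far end. Top2a, the type II topoisomerase that untangles sister chromatids, went from 53.8, 28.98, 34.7 and 31.5 CPM at P1 to 3.49, 2.26, 2.59 and 3.65 CPM at P14. Its level at P14 was 8.16% of that at P1 (log2 change −3.62 ± 0.23, adjusted p = 3.27e-10). Mki67, which coats mitotic chromosomes and encodes the antigen Ki-67 used to stain cycling cells, went from 49.7, 28.6, 34.3 and 34.0 CPM to 5.13, 2.86, 4.48 and 5.41 CPM (log2 change −3.04 ± 0.23, adjusted p = 2.16e-09). In both genes the first P1 library stood well above the other P1 libraries, and no P14 library came near the P1 range. The other chromosome structure genes were the condensin subunits Smc2 (log2 change −1.49 ± 0.10) and Ncapg (−2.43 ± 0.24).

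The 4 cyclin and Cdk1 genes had a narrow range, from −3.26 for Ccnb1 to −2.88 for Cdk1 on the log2 scale, and a median of −3.04. Cdk1, the mitotic kinase, stood at 15.9, 11.48, 11.97 and 8.51 CPM in Ctrl at P1 and at 1.84, 1.43, 1.47 and 1.67 CPM at P14 (log2 change −2.88 ± 0.21, adjusted p = 1.25e-09). Its partner Ccnb1, cyclin B1, went from 16.8, 10.1, 13.5 and 10.7 CPM to 1.30, 1.07, 1.61 and 1.498 CPM (log2 change −3.26 ± 0.21, adjusted p = 3.42e-10). Cyclins A2 and B2 fell 8.61-fold and 7.85-fold. Cdc20 and Ube2c, the activator and the ubiquitin-conjugating enzyme of the anaphase-promoting complex that destroys cyclin B, fell with them by log2 changes of −3.07 ± 0.23 and −3.20 ± 0.24.

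The kinase and chromosomal passenger genes (Aurka, Aurkb, Plk1, Birc5 and Cdca8) had a median log2 change of −2.44. Aurkb, the kinase of the passenger complex, went from 11.3, 6.42, 7.66 and 7.13 CPM to 0.785, 0.776, 1.05 and 1.18 CPM (log2 change −3.14 ± 0.23, adjusted p = 2.14e-09). Its relative Aurka, which acts at centrosomes, fell least of the 5 genes, by a log2 change of −1.97 ± 0.19. Bub1b, the checkpoint protein BubR1, went from 15.1, 7.18, 9.02 and 8.31 CPM to 1.13, 0.604, 0.911 and 0.943 CPM, the second-largest change of the 40 genes (log2 change −3.46 ± 0.30, adjusted p = 1.5e-08). The 5 kinetochore and checkpoint genes spread widely, down to a 2.41-fold fall of Cenpa, the centromeric histone variant.

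Spindle genes (Tpx2, Kif11, Nusap1 and Hmmr) had a median log2 change of −2.29. Nusap1, a microtubule bundling protein of the spindle, fell 5.17-fold, and Hmmr, a spindle-associated hyaluronan receptor, fell 3.25-fold. Genes of the central spindle and cytokinesis (Kif20a, Kif23, Prc1, Anln and Ect2) had a median of −2.66. Anln, the actin-binding scaffold of the cleavage furrow, stood apart among them. It stood at 7.72, 5.85, 5.85 and 4.64 CPM in Ctrl at P1 and at 2.82, 2.85, 3.08 and 3.26 CPM at P14, a 2.01-fold fall (log2 change −1.01 ± 0.17, adjusted p = 5.61e-05). The P14 values of Anln were close together, and the lowest P1 library was above all of them.

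**Figure D2:**
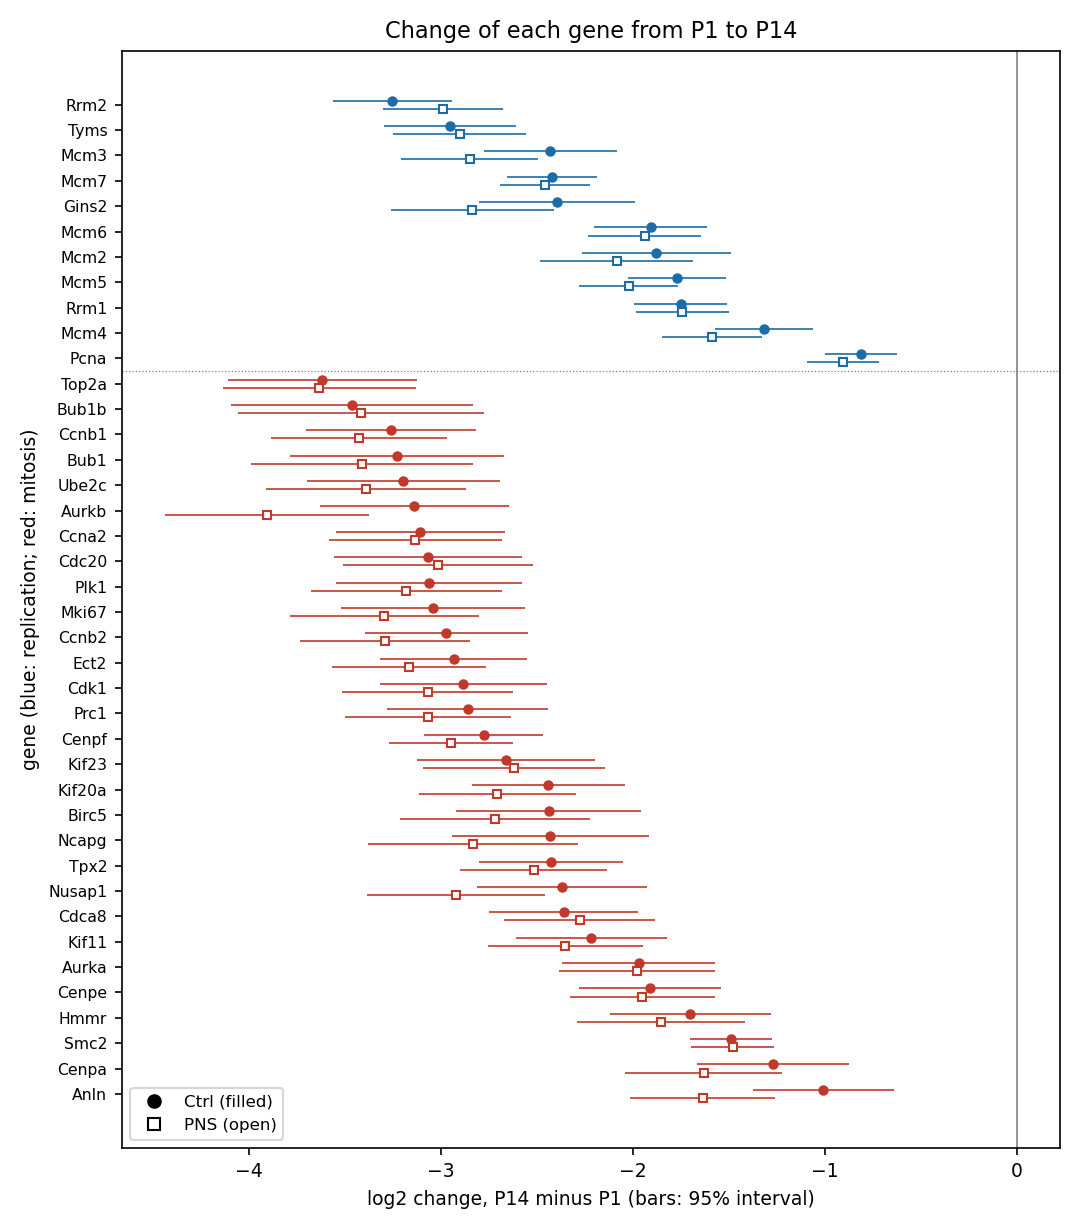
Log2 change from P1 to P14 (horizontal axis, with 95% intervals as bars) for each gene (vertical axis; replication in blue, mitosis in red), in Ctrl (filled circles) and PNS (open squares). All 40 genes lie left of 0 in both, from −3.62 for Top2a to −0.81 for Pcna in Ctrl and from −3.91 for Aurkb to −0.91 for Pcna in PNS.

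In PNS offspring all 40 genes also fell between the ages, by a median of 7.13-fold (log2 change −2.83), where 38.5% of all genes tested were called lower and the median of all genes was −0.06. Aurkb had the largest change, from 8.58, 10.9, 10.02 and 6.69 CPM at P1 to 0.356, 0.673, 0.707 and 0.633 CPM at P14 (log2 change −3.91 ± 0.25, adjusted p = 3.37e-10). Top2a went from 31.4, 40.2, 44.0 and 24.7 CPM to 2.65, 2.43, 3.32 and 2.81 CPM (log2 change −3.63 ± 0.24, adjusted p = 4.17e-10). Pcna again had the smallest change, from 47.2, 55.5, 50.2 and 48.3 CPM to 26.0, 26.3, 29.8 and 25.1 CPM (log2 change −0.91 ± 0.09, adjusted p = 7.66e-08). The smaller fall of Anln seen in Ctrl was not as small here, at 3.11-fold (log2 change −1.64 ± 0.18). Across the 40 genes the changes in the 2 arms, which share no library, had a Spearman rho of 0.951. It is given as a description, since genes are not independent and the arms share a fit. In PNS 32 of the 40 had the larger fall, where 50.8% of all genes tested had the more negative change. No gene was called for this difference, and the 32 became 14 without PNS libraries 2 and 3 of P1.

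The mitosis genes fell further than the replication genes at the median in both arms. The median log2 changes were −1.91 (replication) and −2.78 (mitosis) in Ctrl and −2.09 and −2.95 in PNS. In Ctrl 25 of 29 mitosis genes fell by more than the median replication gene, and the other 4 were Anln, Cenpa, Smc2 and Hmmr. Conversely 9 of 11 replication genes fell by less than the median mitosis gene, and the other 2 were Rrm2 and Tyms. In PNS the counts were 23 of 29 (the exceptions being those 4 genes with Cenpe and Aurka) and 10 of 11 (the exception being Rrm2). The classes therefore overlapped, and the difference was one of medians; it was not tested, because the genes were chosen with results known.

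The balance of the classes can be read within each library, where depth cancels. The summed level of the 11 replication genes was 331.9 ± 46.9 CPM in Ctrl at P1 and 97.3 ± 4.82 CPM at P14, and that of the 29 mitosis genes was 361.3 ± 84.9 and 60.5 ± 6.16 CPM (SD, n = 4). Mitosis genes thus summed to more than replication genes in the Ctrl mean at P1 and to less at P14. The mean log2(CPM + 0.5) of the replication genes minus that of the mitosis genes was 1.17 ± 0.11 in Ctrl at P1, 1.17 ± 0.11 in PNS at P1, 1.49 ± 0.10 in Ctrl at P14 and 1.53 ± 0.07 in PNS at P14. All 8 libraries of P1 (1.02 to 1.34) lay below all 8 of P14 (1.37 to 1.63). This measure understates the gap between the classes, since the added 0.5 CPM compresses the weak mitosis genes at P14.

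**Figure D3:**
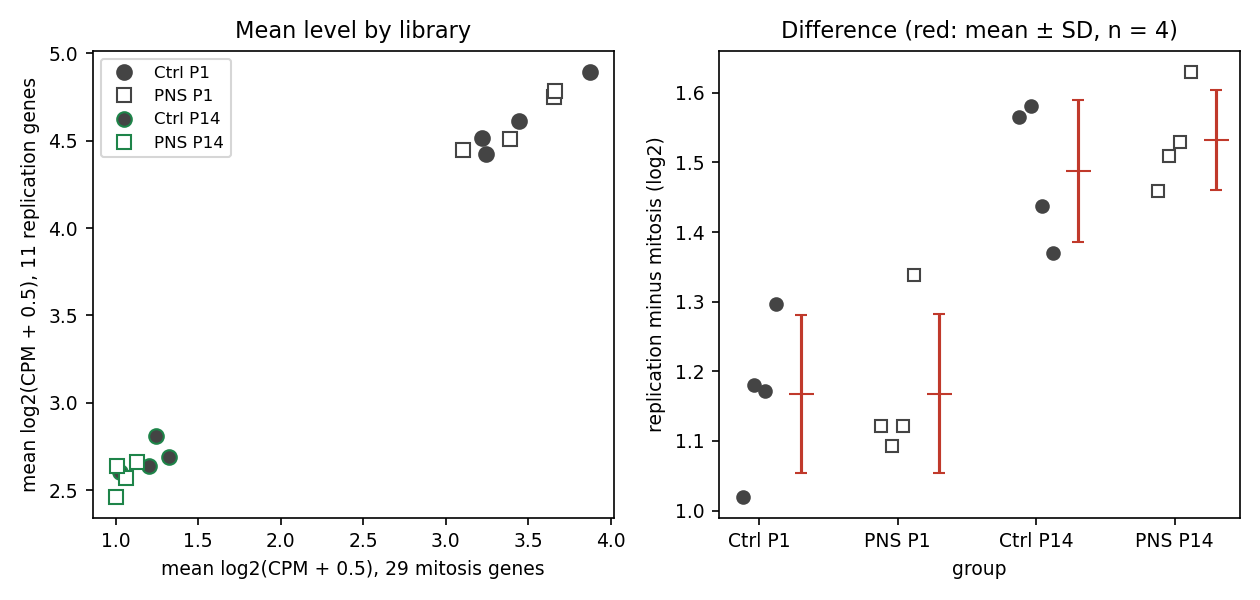
Left, mean log2(CPM + 0.5) of the 29 mitosis genes (horizontal axis) and the 11 replication genes (vertical axis) in each of the 16 libraries; right, the difference of these means (log2) by group, with points for libraries and red bars for mean ± SD (n = 4). The P14 libraries sit between 1.37 and 1.63 and the P1 libraries between 1.02 and 1.34 in the right panel, with no overlap between ages.

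Levels per kilobase of exon allow a rough comparison of genes with each other. The length used was that of all annotated exons of a gene together (11.012 kb for Rrm1), not that of 1 transcript. Levels and ranks between genes therefore depend on the annotation. Pcna ranked first of 40 in every group, at 21.3 ± 2.82 CPM per kilobase in Ctrl at P1 and 12.1 ± 0.70 at P14. At P1 Mcm7 followed at 14.2 ± 2.28 CPM per kilobase, below Pcna by more than the spread, and at P14 Mcm7 and Mcm4 were within each other's spread (2.65 ± 0.19 and 2.68 ± 0.30 CPM per kilobase). The lowest level in every group was that of Ncapg, at 0.498 ± 0.171 CPM per kilobase in Ctrl at P1 and 0.0944 ± 0.0177 at P14. Together the 40 genes took 0.0608% to 0.0975% of all reads at P1 and 0.012% to 0.0155% at P14.

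Other genes of the same pathways moved in the same direction for the most part. Of 36 further replication genes 30 were called lower and 2 higher in Ctrl at P14, with a median log2 change of −1.49; the smallest p-values were those of Gins1 (−3.62 ± 0.17), a GINS subunit, Prim1 (−2.39 ± 0.15), the primase, and Chaf1b (−3.76 ± 0.24), a histone chaperone. The 2 called higher were named after their values were seen. They were Ccne1, cyclin E1 (1.26 ± 0.13, adjusted p = 1.51e-07), and E2f1, the transcription factor of the S-phase program (0.73 ± 0.11, adjusted p = 1.53e-05). In PNS 31 of the 36 were called lower and 2 higher. Of 48 further mitosis genes 47 were called lower, with a median of −2.36 in Ctrl and −2.70 in PNS. The 1 that rose, also named after its value was seen, was Cit, citron kinase, which has a cytokinesis form and a neuronal form (2.85 ± 0.13 in Ctrl, adjusted p = 7e-12).

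Regulators of the G1 phase were mixed. Of 16 genes for G1 cyclins, their kinases and their inhibitors, 11 were called lower and 2 higher in Ctrl, with a median log2 change of −0.90. Cdkn1c, the inhibitor p57, fell by −3.40 ± 0.13 on the log2 scale, Cdk4 by −2.13 ± 0.08 and Cdkn2c, an inhibitor of Cdk4 and its relative, by −1.73 ± 0.16. Cdkn1a, the inhibitor p21, rose by 1.13 ± 0.15 and Cdkn2d, an inhibitor of the same class as Cdkn2c, rose by 0.66 ± 0.07; both were named after their values were seen. In PNS 11 were called lower and 3 higher.

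Markers of cell types that can divide did not all move with the 40 genes. Summed markers of radial glia and intermediate progenitors were 368.9 to 495.1 CPM in Ctrl at P1 and 122.4 to 139.5 CPM at P14, and 7 of 8 were called lower. Summed markers of ventral and migrating neuroblasts were 216.7 to 410.1 and 87.9 to 148.7 CPM, with 5 of 6 called lower. Summed markers of oligodendrocyte precursors were 393.8 to 447.3 CPM at P1 and 503.0 to 566.8 CPM at P14, but the list was split. Gpr17 (log2 change 2.5 ± 0.16) and Sox10 (0.91 ± 0.21) were called higher and Olig2 (−0.73 ± 0.11) lower, while Pdgfra, Olig1 and Cspg4 had values of −0.17, −0.13 and −0.12 that were not called, and the median of the 6 was −0.12. Summed endothelial markers were 215.1 to 269.7 and 191.5 to 230.5 CPM, summed microglial markers 101.4 to 166.5 and 263.6 to 288.4 CPM, and summed astrocyte markers 390.1 to 481.2 and 2738 to 2852 CPM. Of the 5 astrocyte markers 4 were called higher, with a median log2 change of 1.23, from −0.15 (Aldh1l1) to 3.83 (Slc1a2). Of the 5 endothelial markers 1 was called higher and 2 lower, and of the 5 microglial markers 4 were called higher and 0 lower. No defining marker in these lists was below 0.1 CPM on average in any group. Their part in the fall of the 40 genes was not tested.

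At P1 none of the 40 genes was called different between PNS and Ctrl, and their median log2 difference was −0.01. The comparison asks whether stress before birth changed proliferation transcripts in the newborn cortex. It was made with limma on log2(normalized count + 1), a scale that understates the change of weak genes, and 0% of the 16711 genes tested were called at an adjusted p of 0.05. Before adjustment 0 of the 40 passed 0.05, against 6.67% of all genes, and edgeR and DESeq2 on recovered reads also called 0 of the 40. There were 23 negative and 17 positive differences, and 55.5% of all genes tested were negative. Both classes had a median of −0.01. No gene had groups that did not overlap, against 3.23% of all genes.

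The differences at P1 ran from −0.17 for Smc2, a condensin subunit, to 0.24 for Anln. Smc2 had normalized read counts of 1172, 950, 1018 and 932 in Ctrl and 876, 982, 927 and 831 in PNS (log2 difference −0.17 ± 0.09, adjusted p = 0.777). Anln had 391.6, 298, 297 and 238 in Ctrl and 336, 452, 394 and 269 in PNS (0.24 ± 0.19, adjusted p = 0.818). The groups overlapped in both genes, though for Smc2 the first Ctrl library and for Anln PNS libraries 2 and 3 stood highest. Gins2 had 263, 192, 221 and 183 in Ctrl and 230, 297, 241 and 219 in PNS (0.20 ± 0.15, adjusted p = 0.811). Mcm7 had 3847, 2616, 3082 and 3217 in Ctrl and 2546, 3111, 2986 and 2893 in PNS (−0.14 ± 0.11, adjusted p = 0.822). Those 4 genes had the smallest p-values in each direction, and none differed beyond the spread of its libraries.

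The genes most used as proliferation markers lay close to 0. Mki67 had normalized counts of 2524, 1459, 1736 and 1747 in Ctrl and 1723, 1986, 2478 and 1352 in PNS (log2 difference 0.01 ± 0.20, adjusted p = 0.995). Top2a had 2730, 1476, 1755 and 1619 in Ctrl and 1598, 2049, 2189 and 1248 in PNS (−0.09 ± 0.21, adjusted p = 0.945). In both genes the highest library was the first of Ctrl and the lowest the fourth of PNS. Pcna had 2960, 2419, 2778 and 2235 in Ctrl and 2405, 2825, 2498 and 2436 in PNS (−0.03 ± 0.09, adjusted p = 0.966). Mcm2 had 1497, 975, 1105 and 1105 in Ctrl and 1080, 1306, 1439 and 868 in PNS, with group means of 1171 ± 226 and 1173 ± 252.

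Among the mitosis regulators Cdk1 had 804, 585, 606 and 437 in Ctrl and 591, 766, 750.5 and 487 in PNS (log2 difference 0.10 ± 0.19). Ccnb1 had 851, 513, 685 and 547 in Ctrl and 638, 764, 735 and 446 in PNS (−0.01 ± 0.20). Bub1b had 764, 366, 457 and 427 in Ctrl and 482, 567, 645 and 350.2 in PNS (0.04 ± 0.24). In these 3 genes the first Ctrl library was again the highest, and the groups overlapped. Cdc20 had 1036, 599, 726 and 554 in Ctrl and 712, 890.5, 795 and 578 in PNS. Nusap1 had 736, 468, 574 and 423 in Ctrl and 510.0, 663, 639 and 419.9 in PNS. Rrm2, of the replication class, had 1492, 979.7, 1328 and 1031 in Ctrl and 1011, 1127, 1208 and 929 in PNS (−0.16 ± 0.14). Each of these 3 genes was also highest in the first Ctrl library, with overlap between the groups. Aurkb, with its levels in every library given above for the age comparison, had a difference of 0.15 ± 0.19.

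The 95% intervals of the P1 differences lay between −0.56 (Top2a, lower bound) and 0.65 (Anln, upper bound) on the log2 scale. For 38 of the 40 genes the interval excluded a 1.5-fold difference either way, and for all 40 it excluded a 2-fold difference. Smaller differences than these were not resolved at this number of libraries.

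**Figure D4:**
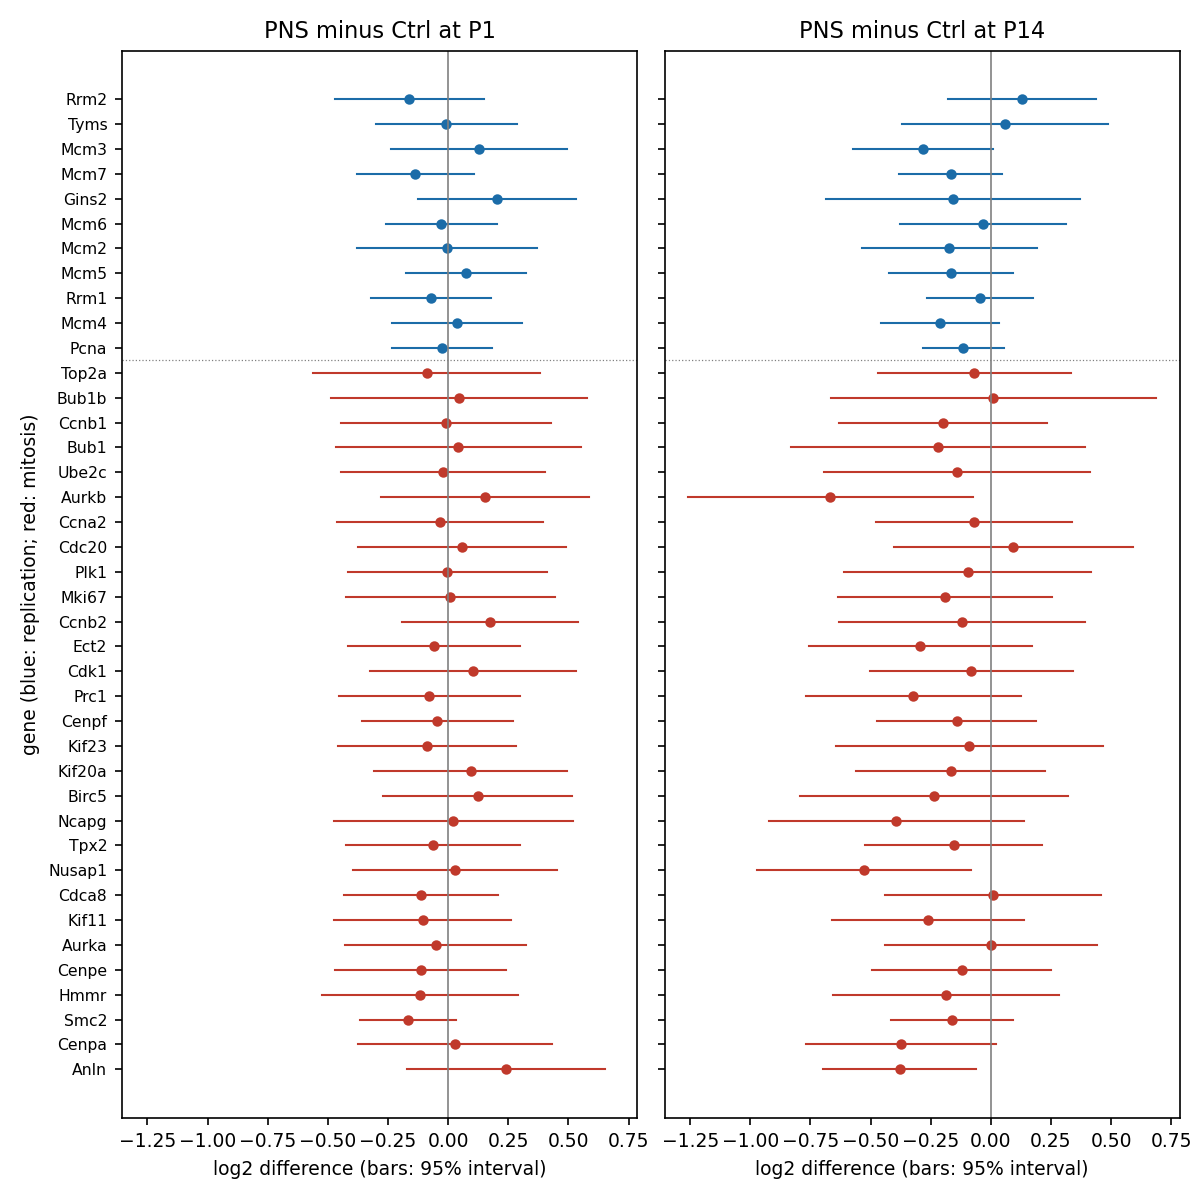
Log2 difference between PNS and Ctrl (horizontal axis, with 95% intervals as bars) for each gene (vertical axis; replication in blue, mitosis in red) at P1 (left) and P14 (right). At P1 the values spread on both sides of 0, from −0.17 to 0.24, and at P14 34 of 40 lie below 0, from −0.67 for Aurkb to 0.13 for Rrm2.

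The spread at P1 ran along libraries rather than along single genes. The first Ctrl library was the highest of the 8 for 34 of the 40 genes, and the fourth PNS library was the lowest for 25. A score over the 40 genes, the mean log2 deviation from the mean of the 8 libraries, was 0.40, −0.21, −0.01 and −0.19 in Ctrl and −0.07, 0.20, 0.18 and −0.32 in PNS. Mitosis genes spanned a wider range of scores (−0.37 to 0.44) than replication genes (−0.19 to 0.28). The same score over radial glia and progenitor markers was 0.42, −0.16, 0.05 and −0.26 in Ctrl and 0.05, 0.25, 0.26 and −0.61 in PNS. The first Ctrl and the fourth PNS library were thus the extremes of both scores, while the groups overlapped in both.

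Markers of neighbouring tissues and of ventral and migrating neuroblasts, which need not come from outside the cortex, also differed between these libraries. Olfactory bulb markers scored 0.00, −1.45, −1.23 and −1.28 in Ctrl and 1.495, 2.46, 1.85 and −1.85 in PNS. Migrating neuroblast markers, which include cells bound for the bulb, scored 0.37, −0.67, 0.62 and −0.48 in Ctrl and −0.10, 0.34, 0.58 and −0.67 in PNS. Striatal markers were highest in the first Ctrl library (0.57). Meningeal fibroblast markers were higher in every PNS library than in every Ctrl library, with sums of 252.5 to 476.1 and 193.2 to 245.0 CPM. The part of these tissues and cells in the levels of the 40 genes was not tested.

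The sign of the P1 difference depended on which libraries were kept, although none of the 40 genes was called in any of these fits. Without the first Ctrl library only 3 of the 40 differences were negative (median 0.12), and without the fourth PNS library 8 were (median 0.13; in this fit 123 of all genes were called, none of the 40 among them). Without PNS libraries 2 and 3, which had the highest olfactory bulb scores, 39 were negative (median −0.23).

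At P14 none of the 40 genes was called either, and 34 had a lower value in PNS, with a median log2 difference of −0.16. With limma 0% of the 15873 genes tested were called, and 49.4% of all genes were negative. The medians were −0.16 for both replication genes (9 of 11 negative) and mitosis genes (25 of 29 negative). Without the first Ctrl library of P14 the replication median was −0.045 and the mitosis median −0.16; over 15 alternatives they ranged from −0.17 to −0.045 and from −0.22 to −0.11. Before adjustment 3 of the 40 passed 0.05 (Aurkb, Nusap1 and Anln), against 3.02% of all genes, and the smallest adjusted p was 0.988; edgeR and DESeq2 on recovered reads called 0 of the 40. Aurkb, Anln and Ect2, the guanine nucleotide exchange factor that activates RhoA at the furrow, had 4 PNS libraries below 4 Ctrl libraries, where 1.07% of all genes did.

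Aurkb had normalized counts of 25.8, 25.5, 35.0 and 39.2 in Ctrl and 11.9, 22.3, 23.4 and 20.98 in PNS. The first PNS library was the lowest, and the mean in PNS was 63.0% of that in Ctrl on the fitted scale (log2 difference −0.67 ± 0.27, adjusted p = 0.988). Nusap1 had 68.4, 50.4, 95.8 and 72.8 in Ctrl and 47.5, 55.8, 43.4 and 47.2 in PNS (−0.53 ± 0.20, adjusted p = 0.988), with overlap between the second library of each group. Anln had 92.6, 93.5, 102.8 and 108.0 in Ctrl and 76.5, 89.3, 77.3 and 63.0 in PNS (−0.38 ± 0.14, adjusted p = 0.988). These are mitosis genes with few reads at this age, as the lowest recovered counts of Aurkb and Nusap1 were 9 and 36.

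The differences of the remaining named genes were smaller. Ect2 had 29.2, 36.3, 30.4 and 29.6 in Ctrl and 29.03, 28.5, 26.9 and 18.4 in PNS, a gap between groups of under 1 normalized count. Mki67 had 168, 94.0, 150 and 179 in Ctrl and 106, 139, 120 and 142 in PNS (log2 difference −0.19 ± 0.20, adjusted p = 0.988). Pcna had 906, 957, 1049 and 937 in Ctrl and 867, 872, 987 and 830 in PNS (−0.12 ± 0.08, adjusted p = 0.988). In Mki67 and Pcna the groups overlapped. The 2 largest positive differences were those of Rrm2, with 77.8, 79.9, 70.1 and 96.8 in Ctrl and 92.4, 85.6, 92.9 and 82.6 in PNS (0.13 ± 0.14), and Cdc20, with 55.0, 43.1, 51.4 and 76.0 in Ctrl and 77.8, 49.6, 66.0 and 47.2 in PNS (0.09 ± 0.22). Both pairs of groups overlapped.

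Of the helicase genes Mcm2 had 263, 186, 179.9 and 186 in Ctrl and 142, 181, 221 and 177 in PNS (log2 difference −0.17 ± 0.16). Mcm7 had 402, 344, 402 and 402 in Ctrl and 322, 378, 313 and 367 in PNS (−0.17 ± 0.10). Gins2 had 35.2, 24.4, 21.02 and 21.6 in Ctrl and 27.7, 18.6, 24.3 and 19.7 in PNS (−0.16 ± 0.24). The first Ctrl library was the highest for Mcm2 and Gins2, and the groups overlapped in all 3 genes. Of the mitosis genes Top2a had 114, 74.2, 86.4 and 121 in Ctrl and 88.4, 80.7, 110.3 and 93.1 in PNS (−0.07 ± 0.18). Cdk1 had 60.4, 47.0, 49.1 and 55.2 in Ctrl and 51.5, 62.0, 52.1 and 36.7 in PNS (−0.08 ± 0.19). Ccnb1 had 42.6, 35.1, 53.7 and 49.6 in Ctrl and 38.3, 43.4, 43.4 and 31.5 in PNS (−0.20 ± 0.20). In Cdk1 and Ccnb1 the fourth PNS library was the lowest of the 8. Smc2 had 219, 236, 252 and 239 in Ctrl and 199, 249, 219 and 182 in PNS (−0.16 ± 0.11). Bub1b had 37.2, 19.8, 30.4 and 31.2 in Ctrl and 17.2, 26.1, 40.8 and 39.3 in PNS (0.01 ± 0.31). The groups overlapped in each of these 5 mitosis genes.

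The P14 intervals were wider than those at P1, from −1.26 (Aurkb, lower bound) to 0.69 (Bub1b, upper bound). They excluded a 1.5-fold difference either way for 20 of the 40 genes (10 of 11 replication and 10 of 29 mitosis genes) and a 2-fold difference for 39. The score over the 40 genes was 0.16, −0.11, 0.09 and 0.20 in Ctrl and −0.16, −0.08, 0.02 and −0.12 in PNS, and the second Ctrl library lay within the PNS range. Leaving out each library in turn gave medians between −0.21 and −0.13, with 30 to 38 negative differences. Radial glia and progenitor markers scored 0.06, 0.41, 0.35 and −0.12 in Ctrl and −0.22 to −0.14 in PNS, so that every PNS library lay below every Ctrl library. The 8 markers were uneven, with Eomes far below the rest of the range. Their log2 differences ran from −2.31 (Eomes) to 0.36 (Nes), with 6 negative, 2 positive, a median of −0.13 and 0 called. Markers of mature oligodendrocytes, all 5 of which had lower values in PNS without a call (median log2 difference −0.51), scored 0.86, −1.10, 0.30 and 0.90 in Ctrl and −0.46, 0.38, 0.77 and −1.65 in PNS. The second Ctrl library was thus low, and Ctrl libraries 1 and 4 were the highest, in both that score and the score of the 40 genes. Olfactory bulb markers, which share Eomes with the radial glia and progenitor list, were highest in Ctrl libraries 2 (1.29) and 3 (1.78). The part of these markers in the P14 values was not tested.

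**Figure D5:**
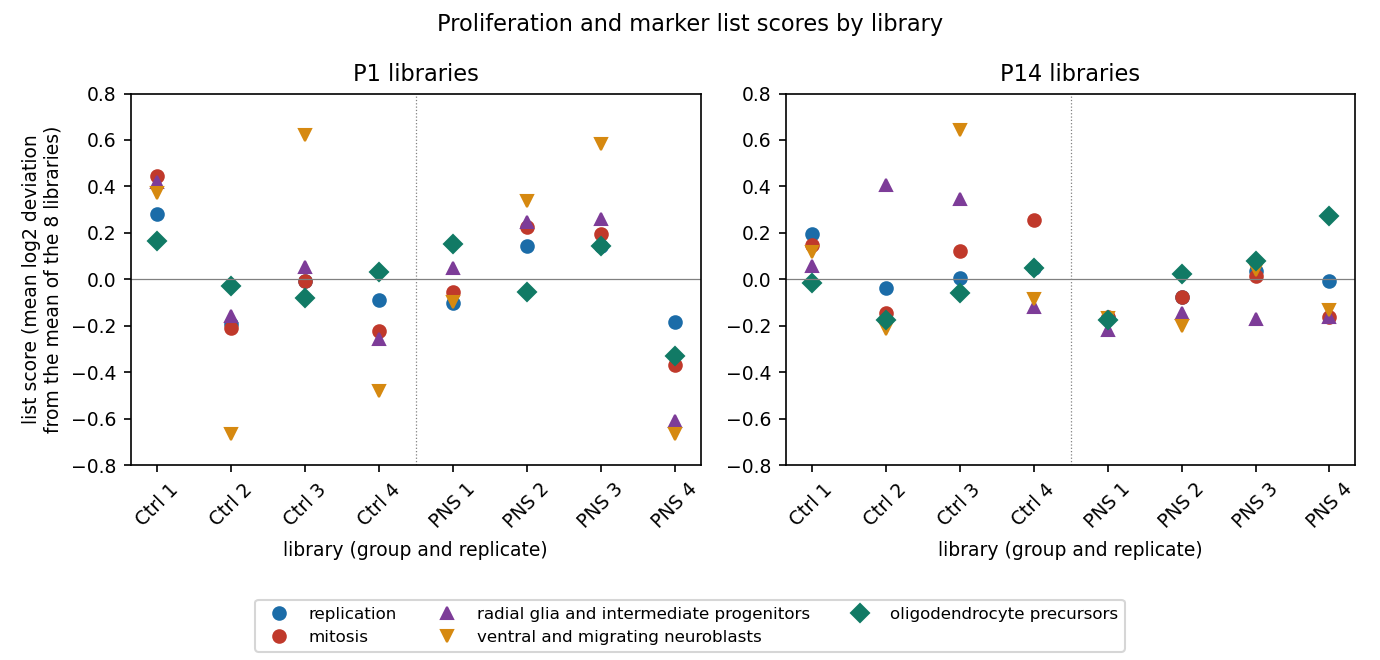
Scores by library (horizontal axis) at P1 (left) and P14 (right), as the mean log2 deviation of a list's genes from the mean of the 8 libraries of that age (vertical axis), for replication genes, mitosis genes and 3 marker lists. At P1 the mitosis score was highest in the first Ctrl library (0.44) and lowest in the fourth PNS library (−0.37); the replication score was also highest in the first Ctrl library (0.28), but lowest in the second Ctrl library (−0.19).

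The difference between the ages in the PNS effect was tested directly, and none of the 40 genes was called. In the 16-library edgeR fit 0% of the 16512 genes were called, 2 of the 40 (Anln and Aurkb) passed 0.05 before adjustment against 6.06% of all genes, and DESeq2 called 0 of the 40. Taken as the P14 effect less the P1 effect, the median was −0.17, and 32 of the 40 values were negative, where 50.8% of all genes were. Aurkb had the most negative value (−0.77 ± 0.34, adjusted p = 0.788), followed by Anln (−0.63 ± 0.25, adjusted p = 0.748), and Rrm2 the most positive (0.27 ± 0.20, adjusted p = 0.907). The 95% intervals reached from −1.49 (Aurkb) to 0.93 (Bub1b) and excluded a 2-fold difference either way for 35 of the 40 genes. With each library left out in turn the median stayed negative, from −0.33 to −0.07. The lower end came without the first Ctrl library of P1, where 39 values were negative. Without both PNS libraries 2 and 3 of P1, a fit added after seeing the data, 14 values were negative (median 0.06).

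None of the other cell cycle lists had a called gene in any PNS comparison. At P1 the medians were −0.01 for the 36 further replication genes, 0.02 for the 48 further mitosis genes and 0.00 for the 16 G1 regulators. At P14 they were −0.08 over 35 tested, −0.09 over 46 tested and 0.03 over 16 tested. Cdkn2c, named after its value was seen, was at −0.51 ± 0.15 at P14 (adjusted p = 0.988).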

How the data were processed

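The submitters' processing notes name cutadapt, STAR 2.7.3a, HTSeq and DESeq2 with the genome build GRCm38; the annotation release and the strand setting were not given in the sources used here. The deposited signal values are the authors' DESeq2-normalized counts, 1 table per age, normalized separately. At least 99.968% of positive values in each library were whole multiples of that library's value for 1 read within 0.0051, so whole reads were recovered. CPM was computed from them with each library's total, over the genes tested between ages, multiplied by its TMM factor.

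PNS was compared with Ctrl within each age with limma-trend (limma 3.58.1 in R 4.3.3), on log2(value + 1), keeping genes whose mean was 10 or more. Ages, and the difference between ages, were compared with the quasi-likelihood test of edgeR 4.0.16, TMM factors and recovered reads of genes present in both tables, in 1 model of 16 libraries; p-values were Benjamini-Hochberg adjusted over all genes tested and called at 0.05. Errors of log2 values are SE; for edgeR they were derived from the F statistic. Alternatives were other pseudocounts, no filter, edgeR and DESeq2 1.42.0 on recovered reads, RLE size factors, a replicate block and leaving out libraries; leaving out PNS libraries 2 and 3 of P1 from the 16-library fits was added after seeing the data. Gene positions and exon lengths are from GENCODE M21 (GRCm38), promoters from RefSeq (GRCm38.p6), and scripts were tested on simulated data.

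Values in every library were given for Mki67, Top2a, Mcm2, Pcna, Cdk1, Aurkb and Ccnb1, for the 2 smallest p-values each way in each PNS comparison, and for the 2 largest and 2 smallest changes between ages in Ctrl; in lists at most 3 genes with the smallest p were named. Ect2 was added after its values were seen. The 40 genes, their classes and the other lists were chosen with earlier results of these data known.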

Additional observations from a re-analysis of the deposited data

Results flagged for a closer look

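Among the 15 genes given in every library, each taken in each of the 4 groups (60 sets of 4 values), 2 values stood apart from the other 3 of their group by Dixon's ratio at 95%; about 1 set in 20, or 3 of 60, is flagged by chance. Mcm2 had 263.02 normalized counts in the first Ctrl library of P14, against 179.87 to 186.36 in the others (ratio 0.922). Mcm7 had 344.44 normalized counts in the second Ctrl library of P14, against 401.52 to 401.79 in the others (ratio 0.995).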

How the results depend on the processing

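The number of the 40 genes called did not change under any alternative run: it was 0 of 40 for PNS against Ctrl at P1 (16 alternatives) and at P14 (15 alternatives), 40 of 40 lower for age in Ctrl and in PNS (21 alternatives each), and 0 of 40 for the difference between ages (21 alternatives). None of the named genes' values changed side of the threshold or reversed a call. Median log2 changes between ages ranged from −2.52 to −2.28 in Ctrl and from −2.90 to −2.61 in PNS over these alternatives. The median replication change minus the median mitosis change ranged from 0.81 to 0.91 in Ctrl and from 0.76 to 0.94 in PNS. Medians of the PNS comparison ranged from −0.23 to 0.13 at P1, from −0.21 to −0.13 at P14, and from −0.33 to 0.06 for the difference.

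Over all genes, counts of calls did depend on the tool and on 1 library. At P1 limma and edgeR (on recovered reads, TMM or RLE) called 0 genes, DESeq2 called 68, and limma without the fourth PNS library called 123. At P14 limma and edgeR called 0 genes and DESeq2 8, and for the difference between ages edgeR called 0, DESeq2 11 and edgeR without the fourth PNS library of P1 87; the cause was not tested. The labels do not say whether replicate numbers pair the libraries. Same-numbered libraries had correlations of deviations from −0.15 to 0.21, which show no clear pairing and do not exclude a weak one. With the replicate block the calls stayed at 0, 0, 40, 40 and 0 in the 5 comparisons. Depth limits the weakest genes at P14, where the fewest reads of a gene in a library were 8.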
